A study of Saccharomyces cerevisiae with 51 samples.

Results

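The genes described here are the subtelomeric genes of budding yeast, those that lie wholly within 20 kb of a chromosome end. They were taken from the annotation of the genome version called before, among nuclear protein-coding genes that have a single exon record and a name that does not start with RPL or RPS. Of 6302 such genes, 292 (4.63%) met the rule and 6010 did not. The 32 windows of 20 kb made up 640 kb, or 5.30% of the nuclear genome. Within this set place chose the genes, so their nearness to an end is not a result. Their direction and arrangement were not used to choose them. Length and density were no criteria either, but they are not fully separate from the rule, since a longer gene crosses the limit more readily. With every gene that overlaps a window counted, the median length was 621 bp in place of 576 bp. Of their names only the start was used, and no RPL or RPS gene lay in a window.

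The series held 51 chromatin immunoprecipitation libraries of histone H3, of H3 phosphorylated at serine 10, and of input DNA, all from the BY4741 background. They came from wild-type, ipl1-TetR-mCh, sgo1-TetR-mCh, sgo1 delta and H3-S10A cells with or without 1 nM beta-estradiol (E2) for 3 hours, and from wild-type, ipl1-321 and cdc15-1 cells kept at 37 °C for 90 minutes. The files analysed here carry coordinates and no value for any library, so the depth of the libraries is unknown and no library was compared with another. What follows describes the annotation that such signals would be read against, and it is the annotation of a reference genome, which may differ from the cells at these repeated places.

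Yeast chromosome ends carry short telomeric repeats, next to them the X element, and at many ends the longer Y′ element, which encodes a helicase-like protein. The zone behind them is rich in gene families for sugar use, cell wall proteins, vitamins and metal transport, and its genes can be silenced by Sir proteins that spread from the telomere. Related copies at different ends recombine with each other, so their number and place vary between strains.

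Near the ends, single-exon genes were somewhat fewer and the sequence between them was longer. There were 0.456 genes per kb in the windows and 0.526 genes per kb in the rest of the nuclear genome. By this count the density was lower in the windows on 13 of 16 chromosomes. The 15 genes that crossed the limit were counted in the rest, which enlarged the difference. With genes placed by their midpoint the densities were 0.469 and 0.525 per kb. With every gene that overlaps a window counted there, they were 0.480 and 0.524 per kb. Single-exon genes of the rule covered 44.3% of the bases in the windows and 70.9% of the bases elsewhere. With every annotated gene counted, the covered share was 52.3% in the windows and 75.3% elsewhere. The median stretch between neighbouring annotated genes was 800 bp in the windows (n = 247) and 338 bp elsewhere (n = 6057). Stretches over 2000 bp numbered 28 of 247 in the windows and 91 of 6057 elsewhere. The longest in a window measured 6166 bp and lay at the left end of chromosome V (7554 to 13719). These stretches are free of annotated genes only, because the annotation lists no X elements, telomeric repeats or transposon remnants as such. All coordinates are 1-based positions in the before version.

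The ends differed among themselves in number of genes. A window held between 4 and 14 of them, with a median of 9 and a mean of 9.13 ± 1.95 (SD over 32 ends), and 23 windows held 8 to 10. The left end of chromosome VI held the most, 14, among them COS4, SNO3, SNZ3, THI5, AAD16 and AAD6. The right end of chromosome XI held the fewest, 4. These were GEX2, a glutathione exchanger gene, VBA5, a gene of the vacuolar amino acid transporter family, YKR104W and NFT1, an ABC transporter gene. The share of a window covered by its members ran from 21.4% at the left end of chromosome I to 63.3% at the right end of chromosome XV, with a median of 41.3%. Because windows have equal size and chromosomes do not, members made up 16.4% of the genes of the rule on chromosome VI and 15.5% on chromosome I, but 1.98% on chromosome IV.

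**Figure D1:**
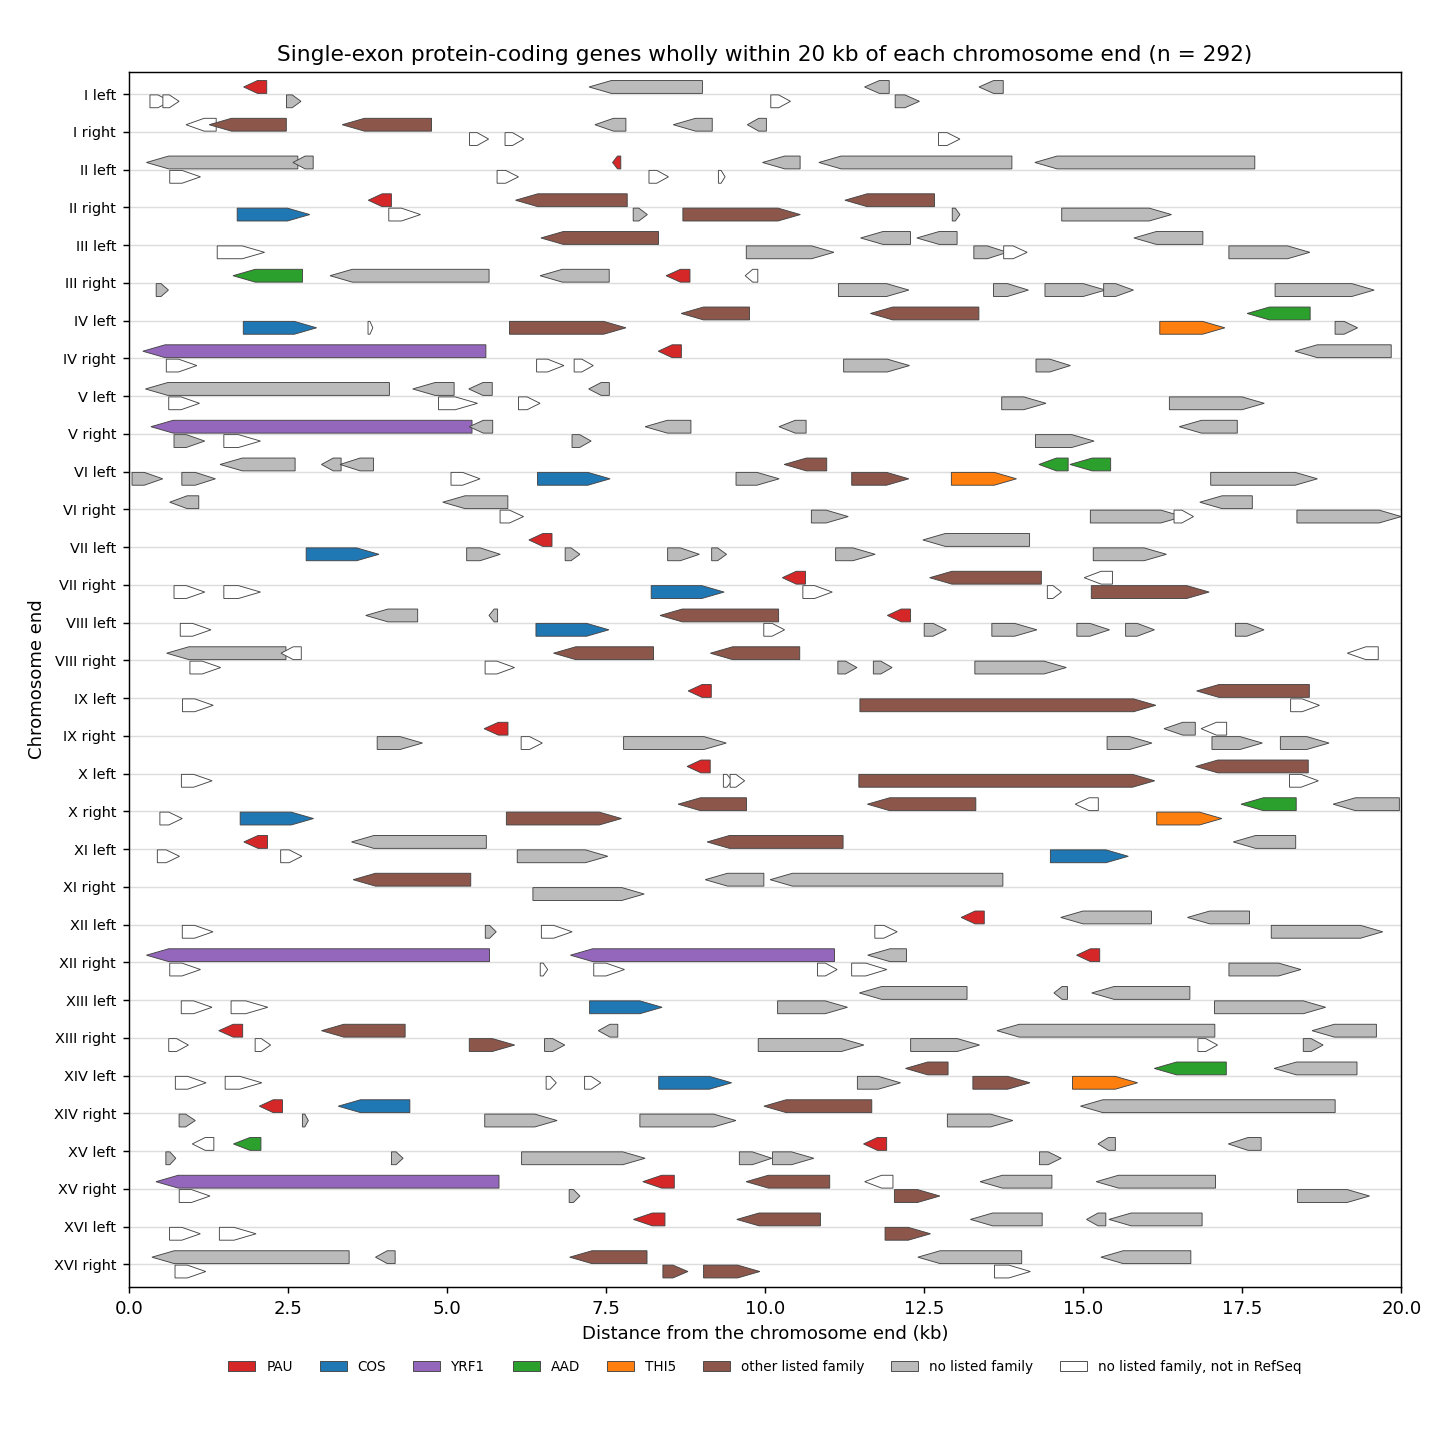
Map of the 292 genes by distance from the chromosome end in kb (x axis) at each of the 32 ends (y axis), with arrows above a line for genes transcribed toward the end and below it for genes transcribed away from it. PAU genes (red) stand above the line at all 19 ends that have one, and COS genes (blue) stand below it at 10 of 11 ends.

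Genes near the ends were shorter than other genes. Their median length on the chromosome was 576 bp (quartiles 363 and 1152 bp) and that of the other genes was 1131 bp (quartiles 588 and 1815 bp). Genes under 500 bp made up 44.9% of the members and 21.3% of the others, and genes of 3000 bp or more made up 4.79% and 7.55%. The median was lower for members on 15 of 16 chromosomes, and the exception was chromosome XI, with 1323 bp for its 12 members and 1149 bp for its other genes. At 30 of 32 ends the median was below 1131 bp. The longest members were YRF1-1 (chromosome IV, 1529426 to 1534816), YRF1-5 (chromosome XII, 1072508 to 1077898) and YRF1-8 (chromosome XV, 1085473 to 1090863), each of 5391 bp, followed by YRF1-2 with 5046 bp and by VTH1 and VTH2 with 4650 bp each. The YRF1 genes encode the Y′ helicase, and VTH1 and VTH2 encode relatives of the vacuolar sorting receptor Pep1. The shortest members were YDL247W-A with 75 bp and YNR075C-A with 93 bp, followed by YBL107W-A with 105 bp, YLR466C-B with 117 bp and YBR296C-A with 120 bp. None of these 5 has a standard name.

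A gene without a standard name is one whose name in the annotation is its systematic identifier. Such genes made up 151 of 292 members (51.7%) and 23.2% of the others, and the share was higher for members on all 16 chromosomes. In addition, 75 members (25.7%) had an identifier that is no locus tag in the RefSeq gene table of assembly R64, against 9.93% of the others. Of these 75 genes, 72 had no standard name and 65 were under 500 bp. The 217 members found in RefSeq had a median length of 951 bp, against 1254 bp for the 5413 other genes found there. Their density was 0.339 genes per kb against 0.473. Restricted to RefSeq, the genes near the ends were thus still shorter and sparser.

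Length and naming changed with distance inside the window. Genes were sorted by the distance of their midpoint from the nearest end in steps of 5 kb, each with 68 to 98 genes. The median length was 483 bp from 0 to 5 kb, 483 bp from 5 to 10 kb, 669 bp from 10 to 15 kb and 1062 bp from 15 to 20 kb, and it lay between 915 and 1425 bp in the 16 steps from 20 to 100 kb. Genes without a standard name fell from 72.7% in the first step to 51.2%, 42.5% and 34.3% in the next ones, and lay between 14.8% and 32% further in. Genes not in RefSeq made up 44.2%, 26.2%, 16.4% and 11.4% of these steps, and 2.94% to 15.2% beyond them. Of the 77 genes in the first step, 53.2% overlapped another protein-coding gene, against 13.8% to 21.4% in the other steps of the window and 5.88% to 31.5% beyond. Density had no such order, with 0.481, 0.500, 0.456 and 0.438 genes per kb. These values lay within the 0.425 to 0.6125 genes per kb of the 16 steps from 20 to 100 kb. RefSeq genes rose from 0.269 per kb in the first step to 0.388 per kb in the fourth.

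**Figure D2:**
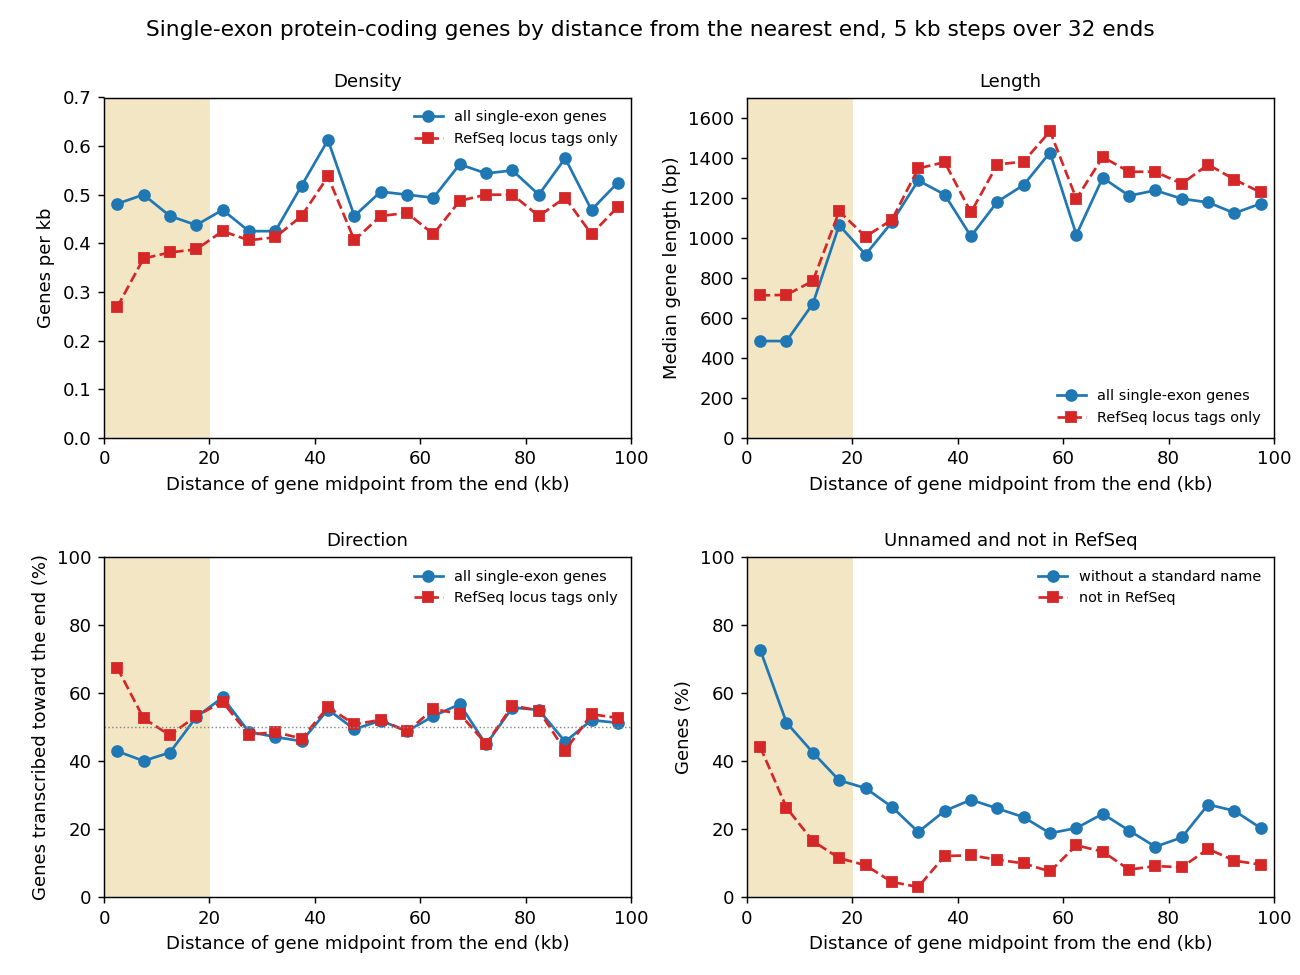
Genes per kb, median length in bp, percentage transcribed toward the end, and percentage without a standard name or outside RefSeq, in 5 kb steps of the distance between gene midpoint and chromosome end (x axis, kb), with the 20 kb window shaded. The median length of all single-exon genes is 483 bp in the first step and 1062 bp in the fourth, and the share without a standard name goes from 72.7% to 34.3%.

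Direction was read relative to the nearest end. Of the 292 members, 128 (43.8%) were transcribed toward the end and 164 (56.2%) away from it, and of the other genes 51.1% were transcribed toward their nearest end. Members pointing away were more numerous at 22 ends, members pointing toward the end at 8, and 2 ends held equal numbers. The balance rested on genes outside RefSeq. Among the 217 members in RefSeq, 117 (53.9%) pointed toward the end, against 51.0% of the other RefSeq genes, so the order of the groups turned around. Among the 75 members not in RefSeq, 11 (14.7%) pointed toward the end, against 52.1% of 597 such genes elsewhere. In the first 5 kb step, 67.4% of the 43 RefSeq genes pointed toward the end, against 42.9% of all 77 genes there. In the next steps of the window, 52.5%, 47.5% and 53.2% of RefSeq genes did. These shares lay within the 43.0% to 57.4% of RefSeq genes in the steps from 20 to 100 kb. Members pointing toward the end were also longer, with a median of 916.5 bp against 498 bp for those pointing away, while the others had 1131 and 1128 bp. Among members in RefSeq this contrast was smaller, with 1011 bp toward the end and 891 bp away.

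**Figure D3:**
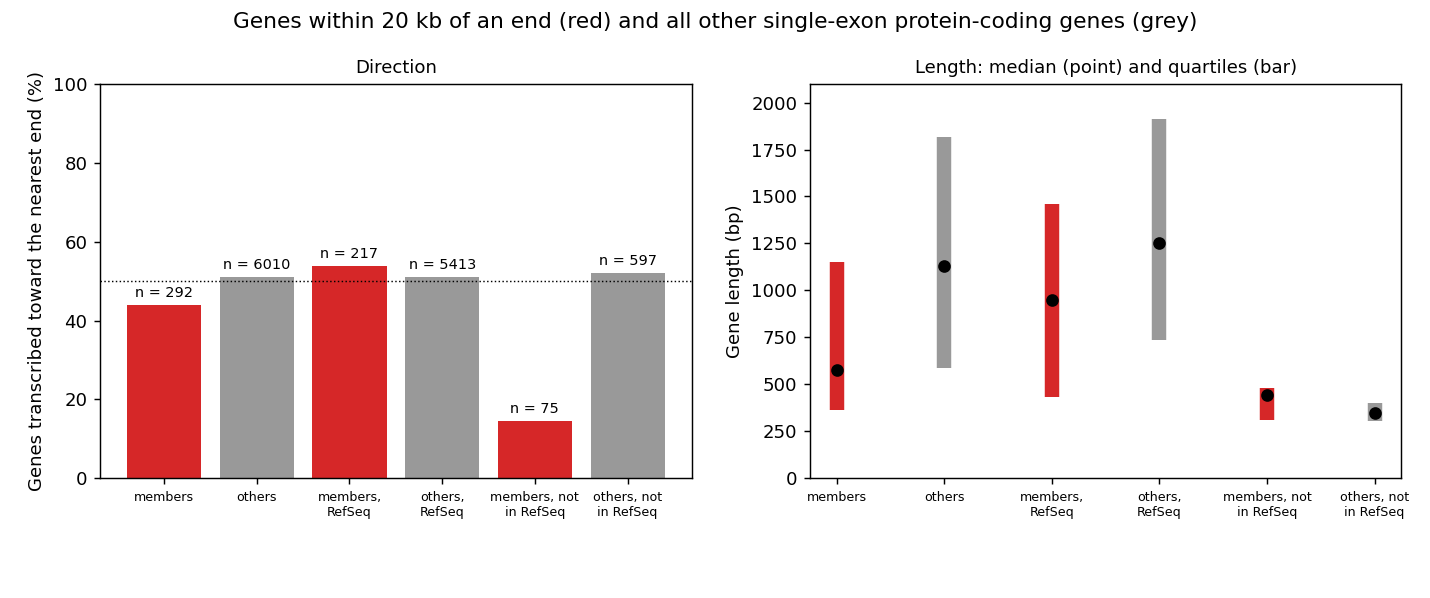
Left, percentage of genes transcribed toward the nearest end (bars from 0, n above each bar, dotted line at 50%); right, gene length in bp as median (point) and quartiles (bar), for genes within 20 kb of an end (red) and all others (grey), in all, in RefSeq and not in RefSeq. The share toward the end is 43.8% for all members, 53.9% for those in RefSeq and 14.7% for those not in RefSeq.

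The genes pointing away included open reading frames of a repeated length. A length of exactly 483 bp occurred in 18 members at 16 ends, more often than any other length, and in 6 of the 6010 other genes. All 18 pointed away from the end, none had a standard name and 16 were not in RefSeq. They started between 52 bp (YFL068W, left end of chromosome VI) and 7308 bp (YLR466C-A, right end of chromosome XII) from the end. Of the 18, 17 lay wholly inside a protein-coding gene of the opposite strand, as YLR467C-A did in YRF1-5 and YER190C-B in YRF1-2. In 8 cases that gene had 1 exon record and in 9 cases it had 2, as for YGR296C-B in YRF1-3. YFL068W had no gene on the opposite strand. A length of 576 bp occurred in 8 other genes and in 5 further members. These 5, among them YER190C-A and YNL339W-A, all pointed away, all lay inside an opposite gene and were all absent from RefSeq. Without the unnamed genes of these lengths, 47.6% of the remaining 269 members pointed toward the end, against 51.1% of the others. That alternative was chosen after the lengths had been seen.

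The rule kept out some genes of the same windows. Of 27 genes left out, 15 were protein-coding genes with 2 exon records, 11 were pseudogenes and 1 was the tRNA gene tL(UAA)B1. Among the 15 genes with 2 exon records were YRF1-3, YRF1-6 and YRF1-7, of 5728 bp each, and YIL177C and YJL225C, of 5665 bp each, whose near edges lay 279 to 482 bp from the end. Of these 15 genes, 14 pointed toward the end and 1, YHR214C-B, pointed away. FDH2, a formate dehydrogenase relative at the left end of chromosome XVI, was listed as a pseudogene, and its intact relative FDH1 was a member at the right end of chromosome XV.

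At most ends the first member lay close to the end. The near edge of the member nearest to its end was 643.5 bp away in the median, from 52 bp for YFL068W to 3905 bp for YIR042C at the right end of chromosome IX, and at 26 ends it was under 1 kb. The nearest member pointed away from the end at 21 ends and toward it at 11, and at 14 ends it was not in RefSeq. This majority rested on the single-exon rule. At 8 ends a protein-coding gene with 2 exon records lay nearer to the end, such as YRF1-3, 349 bp from the right end of chromosome VII, where the nearest member YGR296C-B lay 712 bp away. With such genes counted, which was chosen after the values had been seen, the nearest gene pointed toward the end at 19 ends and away from it at 13, and at 6 ends it was not in RefSeq. With a standard name, the nearest members were COS2, COS7, COS12, GEX2 and the 4 genes YRF1-1, YRF1-2, YRF1-5 and YRF1-8.

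At the inner limit, the last genes inside were RET2, a coatomer subunit gene whose far edge lay 19999 bp from the right end of chromosome VI, YJR154W (19968 bp) and FDC1, a ferulic acid decarboxylase gene (19840 bp). The first genes outside were YPR195C (20102 bp), YMR315W-A (20146 bp) and LYS1, a lysine synthesis gene (20274 bp). In all, 15 genes crossed the limit and were counted among the others.

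Families were read from gene names in 23 lists, and 83 of their 136 single-exon genes (61.0%) were members. Together they made up 28.4% of the members. For comparison, 4 lists of genes with general functions, namely the proteasome, the vacuolar proton pump, RNA polymerase II and glycolysis, had 2 members among 74 genes (2.70%), and of all 6302 genes of the rule 4.63% were members. The 2 were RPN12, a proteasome subunit gene, and HXK1, a hexokinase gene, both at the right end of chromosome VI. The family lists were drawn up with knowledge of where these families lie, so their share is a description. In 10 lists every single-exon gene was a member, and in 3 lists (DAN and TIR, FLO, BIO) none was.

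**Figure D4:**
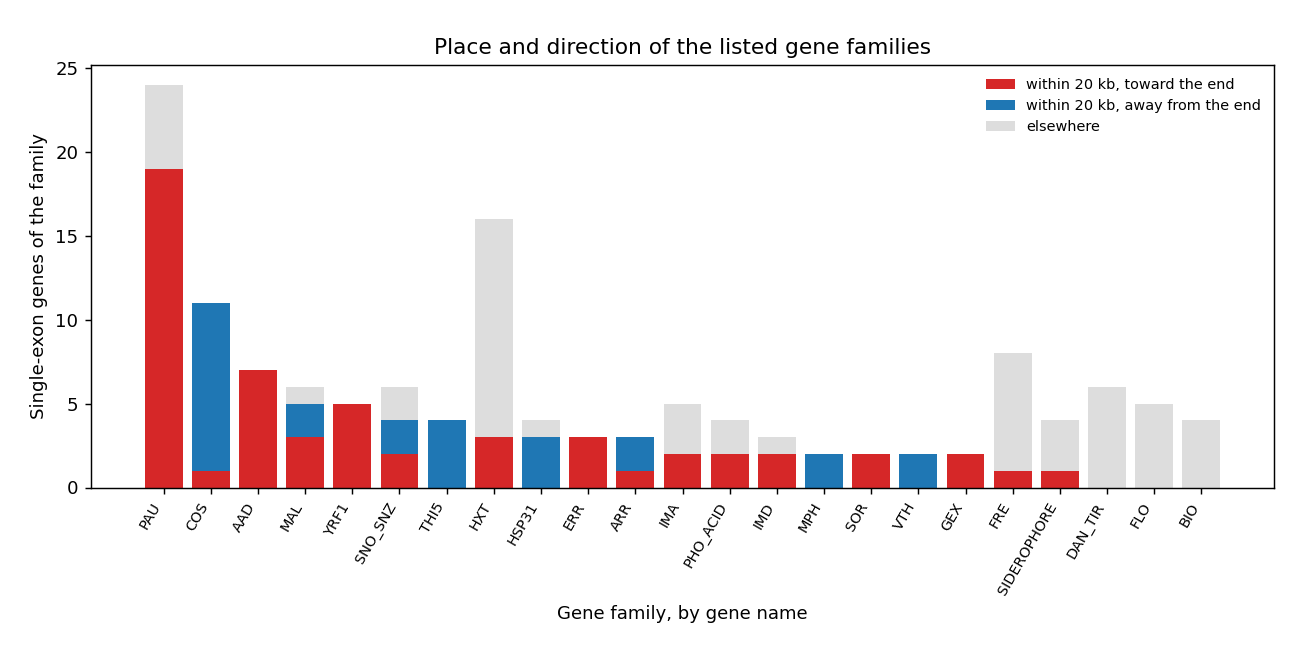
Number of single-exon genes (y axis) in each of the 23 family lists (x axis), split into genes within 20 kb of an end transcribed toward it (red) or away from it (blue) and genes elsewhere (grey). All 19 PAU members and all 7 AAD genes point toward the end, 10 of 11 COS genes point away, and the DAN_TIR, FLO and BIO lists have no gene in the windows.

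The seripauperin genes (PAU), which encode small cell wall mannoproteins, were the largest family. Of 24 PAU genes, 19 were members, at 19 different ends with 1 each, and all 19 pointed toward the end. Their near edges ran from 1416 bp (PAU19, chromosome XIII, 922641 to 923015) to 14896 bp (PAU4, chromosome XII, 1062919 to 1063281) from the end, with a median of 8079 bp. In length 12 measured exactly 363 bp and 3 measured 375 bp. The others were PAU16 with 372 bp, PAU21 and PAU22 with 495 bp each and PAU9 with 129 bp. The 5 PAU genes elsewhere lay from 53.2 kb (PAU7) to 222.7 kb (PAU23) from an end. Of these, PAU5 and PAU23 pointed toward the nearest end and PAU2, PAU7 and PAU17 away. The related cell wall genes of the DAN and TIR list were all outside, from 30011 bp (DAN4) to 346194 bp (TIR2).

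The COS genes encode membrane proteins that act in sorting at the endosome. All 11 were members, at 11 ends, with lengths from 1125 to 1224 bp. Their near edges lay from 1705 bp (COS2, chromosome II, 810340 to 811479) to 14484 bp (COS9, chromosome XI, 14485 to 15708) from the end, with a median of 6400 bp. COS10, at the right end of chromosome XIV, was the 1 COS gene that pointed toward the end. At the right end of chromosome II and at both ends of chromosome VII, COS2, COS12 and COS6 lay outside of PAU24, PAU11 and PAU12, with the COS gene pointing inward and the PAU gene outward. COS8 and PAU13 at the left end of chromosome VIII had the same order. At the left end of chromosome XI and the right end of chromosome XIV, the PAU gene lay nearer to the end.

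The 5 single-exon YRF1 genes, which encode the Y′ helicase, all pointed toward the end. YRF1-1, YRF1-2, YRF1-5 and YRF1-8 lay 222, 349, 279 and 428 bp from it, and YRF1-4 lay 6942 bp from the right end of chromosome XII, inward of YRF1-5. With the 3 YRF1 genes of 2 exon records, all 8 pointed toward the end. Since the members of such a family share ancestry and near-identical sequence, their common direction is not a set of independent observations.

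Sugar genes were present at several ends. MAL32 (maltase), MAL31 (maltose transporter) and MAL33 (activator) lay at the right end of chromosome II, and MAL12 and MAL11 at the right end of chromosome VII, where MAL13 crossed the 20 kb limit. The maltases and MAL33 pointed toward the end and the transporters away, so maltase and transporter were divergent in both clusters. Of 16 HXT genes, which encode hexose transporters, 3 were members, namely HXT15, HXT16 and HXT17. They lay 11656, 11608 and 9982 bp from their ends and pointed toward them, while the 13 others lay from 19.5 kb (HXT9) to 376.0 kb (HXT7) from an end. Of 5 isomaltase genes, IMA3 and IMA4 were members. IMA1, IMA2 and IMA5 lay 21.9, 22.5 and 24.3 kb from an end. The alpha-glucoside permease genes MPH2 and MPH3 pointed away from their ends, and the sorbitol dehydrogenase genes SOR1 and SOR2 toward them.

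The flocculin genes, cell surface adhesins often named as subtelomeric, had no member. FLO10 began 17.0 kb from the right end of chromosome XI and crossed the limit. FLO1, FLO9, FLO5 and FLO11 lay 22.2, 24.0, 34.0 and 46.2 kb from an end, and within 30 kb the list would have 3 members.

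Genes for vitamins and small molecules formed a further group. All 4 genes of the THI5 list (THI5, THI11, THI12 and THI13), which act in thiamine synthesis, were members. They measured 1023 bp each, lay 12928 to 16203 bp from the end and pointed away from it. Of the vitamin B6 genes, SNO2, SNZ2, SNO3 and SNZ3 were members, with SNO pointing outward and SNZ inward, and SNO1 and SNZ1 lay 457.3 and 458.4 kb from an end. All 7 AAD genes, which encode putative aryl-alcohol dehydrogenases, were members at 6 ends and pointed toward the end. They ranged from 432 bp (AAD15) to 1131 bp (AAD14). AAD16 and AAD6 were neighbours at the left end of chromosome VI.

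The remaining lists held fewer members. The arsenic resistance genes ARR1, ARR2 and ARR3 lay together at the right end of chromosome XVI, 6930 to 9034 bp from the end. Of 8 ferric reductase genes, FRE2 was a member, and of 4 siderophore transporter genes, ARN2. ARN1 and ENB1 lay 19.1 and 19.5 kb from an end and crossed the limit. The acid phosphatase genes PHO11 and PHO12 were members and PHO3 and PHO5 were not. Of the genes for inosine monophosphate dehydrogenase, IMD1 and IMD2 were members. The biotin genes all lay outside, from 26.0 kb (BIO2) to 51.0 kb (BIO5).

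Direction was uniform in most of the lists, but many of these were small. Of 18 lists with at least 2 members, 14 had all members in 1 direction, 10 toward the end and 4 away from it. Among these 14, the MPH, IMA, IMD, SOR, acid phosphatase, VTH and GEX lists had only 2 members each. Agreement between 2 related copies has little weight. The 4 mixed ones were COS, MAL, SNO and SNZ, and ARR, and the last 3 lists combine unlike genes. Copies within a family are not independent observations, and 19 of the 56 family members that pointed toward the end were PAU genes. Over all 23 lists, 67.5% of 83 members pointed toward the end. The 209 other members, the 2 from the comparison lists included, had 34.4%, so the families and the remaining members lay on opposite sides of the 51.1% of genes elsewhere. Of those 209, 151 had no standard name and 73 were not in RefSeq, against 2 of the 83 family members not in RefSeq. Of all 75 members not in RefSeq, 14.7% pointed toward the end. The contrast between the families and the remaining members is thus not separate from the RefSeq split.

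Family copies at different ends often had neighbours of the same families. Of 496 pairs of ends, 32 shared 2 or more families, and in 21 of these the shared families stood in the same order with the same directions. All 11 pairs that shared 3 or more families did so. These pairs are not independent, since the same ends recur in them. The left ends of chromosomes IV, VI and XIV and the right end of chromosome X were all paired with each other. Likewise, the right ends of chromosomes XIII and XV and the left end of chromosome XVI were. Because most families had a uniform direction, shared direction follows in part from the shared families. The pair with most in common was the left end of chromosome IV and the right end of chromosome X, which shared 6. From the end inward these were COS7 and COS5, MPH2 and MPH3, SOR2 and SOR1, HXT15 and HXT16, THI13 and THI11, and AAD4 and AAD10. COS7 lay 1801 bp and COS5 1752 bp from its end, a difference of 49 bp. The next genes differed by 49, 48, 48 and 48 bp, and AAD4 and AAD10 by 96 bp. Of these 6 gene pairs, 4 had equal lengths.

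Other blocks had nearly equal spacing, at differing distances from the end. At the left ends of chromosomes VI and XIV, COS4 and COS1, SNO3 and SNO2, SNZ3 and SNZ2, and THI5 and THI12 differed by 1904, 1907, 1904 and 1903 bp in their distance from the end. DDI2 and DDI3, a gene pair outside the lists that was picked out after the map was seen, lay between them with 1907 bp. The AAD genes of these ends did not have this spacing, since AAD16 and AAD6 differed from AAD14 by 1813 and 1325 bp. At the left ends of chromosomes IX and X, PAU14 and PAU1, VTH1 and VTH2, and IMA3 and IMA4 each differed by 17 bp, and all 3 gene pairs had equal lengths. At the right end of chromosome XV and the left end of chromosome XVI, PAU21 and PAU22, ERR1 and ERR2, and HSP33 and HSP32 differed by 147, 146 and 147 bp. ERR genes encode enolase relatives, and the HSP31 family encodes DJ-1 family chaperones. FEX1 and FEX2, fluoride exporter genes also picked out afterwards, followed with 153 bp. The right end of chromosome XIII held PAU19, ERR3 and SNO4, which is a gene of the HSP31 list, in the same order. They lay 6663, 6672 and 6681 bp nearer to the end than PAU21, ERR1 and HSP33.

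Some blocks combined equal and unequal copies. At the right ends of chromosomes II and VII, COS2 and COS6, PAU24 and PAU12, and MAL32 and MAL12 differed by 6506, 6507 and 6508 bp, and MAL31 and MAL11 by 6418 bp. GEX1 and GEX2, at the left end of chromosome III and the right end of chromosome XI, had equal lengths of 1848 bp. Their neighbours VBA3 and VBA5 had 1377 and 1749 bp. PHO11 and PHO12 at the right ends of chromosomes I and VIII had equal lengths of 1404 bp, and IMD1 and IMD2 beside them had 1212 and 1572 bp. IMD1 was not in RefSeq. Sequence was not used here, so equal length and spacing describe the annotation and do not measure identity. Short reads from such copies can align to more than 1 place, and the treatment of such reads by the authors is not stated in the labels.

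Not all members belonged to such families. The left end of chromosome III held the silent mating type genes HMLALPHA2 (12386 to 13018) and HMLALPHA1 (13282 to 13809), which are divergent. PKC1, the protein kinase C gene, lay 14240 bp from the left end of chromosome II and RPD3, a histone deacetylase gene, 18000 bp from the left end of chromosome XIV. These genes were named after their place had been seen.

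The grid of bins resolved the windows unequally. Every nuclear chromosome was cut into 500 bins, so a 20 kb window took 44 bins of 461 bp on chromosome I and 7 bins of 3071 bp on chromosome IV. Together, 576 of 8000 nuclear bins (7.20%) touched a window, more than the windows' 5.30% of the sequence. Of the 292 members, 127 lay within a single bin, and 78 (26.7%) had their midpoint in a bin that held the midpoint of another member. At the right end of chromosome VII, all 9 members shared bins, with 4 bins for 9 midpoints. At the left end of chromosome VI, with bins of 541 bp, none of the 14 members did. The genome version called after had the same 292 members at the same distances from the ends. Only the 8 members at the right end of chromosome IV, YRF1-1, PAU10 and FDC1 among them, had other coordinates there, each lower by 3423 bp.

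All values are complete counts over 1 annotation, with no replicates and no sampling error. No test was applied to the differences between members and other genes, because neighbouring and duplicated genes are not independent, and nothing here says how often such differences would arise by chance.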

How the data were processed

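The 51 libraries were grouped by their descriptions, and no library entered a comparison, since the files hold no value for any of them. The submitters' processing notes name the aligner Bowtie2 2.2.9, and no label states a genome build. The authors' deposited files are 6 tables of chromosome lengths, bins and gene records in bp, with no score. The annotation's source field names Ensembl, per the file records.

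A gene's span covered all its records. A member's far edge had to lie at most 20 kb from the end. Distances count the bases between the end and the gene's near edge. Identifiers were matched to the RefSeq gene table of assembly R64, used for names only: 6006 of 7071 nuclear identifiers were locus tags there. The members, the family lists and the naming rule were chosen with earlier results of these data known. The naming rule took family genes, genes nearest an end or the 20 kb limit, longest and shortest genes, and genes left out. It also took the genes of the ends with most and fewest members. Genes named outside the rule are marked, except FDH1, VBA3 and some open reading frames of repeated length, which also lay outside it. Protein copies were not compared, as no sequence was used here. Gene placement was tested on simulated data, and 2000 of 2000 were placed correctly. Alternatives were other windows, gene sets and comparison genes. Python 3.11.15, pandas 2.3.3, numpy 2.4.6, scipy 1.17.1 and matplotlib 3.10.9 were used.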

Additional observations from a re-analysis of the deposited data

How the results depend on the processing

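The number, density, direction, length and naming of the genes near the ends, and the family total, were recomputed under alternatives. This gave 57 combinations of a result and an alternative, not 57 for each result. Of these, 44 kept the member value within a set limit. Some of the 44 could not leave it. Limiting the other genes to those more than 50 kb from an end left the member values unchanged. The after version held the same 292 members. The limit was the binomial interval for a share, the SD over the ends for density and length, and 1.5 times for a count. The interval served as a yardstick only and does not measure sampling error. The covered share of bases, in another unit than genes per kb, was judged by its direction alone. Against the other genes, density, length and naming kept their direction under each alternative run, and transcription toward the end kept it under all but 1. With RefSeq genes only, 53.9% of members pointed toward the end against 51.0% of the others, which reverses the main 43.8% against 51.1%, while density was 0.339 per kb, median length 951 bp and the share without a standard name 36.4%. With only genes not in RefSeq, an alternative chosen after seeing the data, 14.7% pointed toward the end. Without the families, 34.4% did, density was 0.327 per kb and 72.2% had no standard name. In a 10 kb window there were 150 genes, 63.3% without a standard name, and 45 family members in place of 83. In a 30 kb window 44.3% had no standard name, and among genes that overlap no other protein-coding gene 42.7%. Of 27 lists, 14 moved by over 1.5 times at 10 kb and 8 at 30 kb. The nearest gene pointed toward the end at 11 ends by the single-exon rule and at 19 with any number of exon records. No cause was tested. No paired analysis was possible because each file is made of coordinates alone. No H3pS10 comparison was run, because no file held a value for any library. The planned comparison of protein copies was not run either.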
